A study of Mus musculus with 6 samples.

Results

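Transcripts of 10 enzymes of serine synthesis and folate one-carbon metabolism were examined in the atria of obese and lean mice. The enzymes were Phgdh, Psat1 and Psph of serine synthesis, the serine hydroxymethyltransferases Shmt1 and Shmt2, the cytosolic folate enzyme Mthfd1, and the mitochondrial folate enzymes Mthfd2, Mthfd2l, Mthfd1l and Aldh1l2. They were chosen by gene symbol among the 43432 genes of the deposited table, which writes symbols in capitals, and each symbol matched a single gene. The only measured value in the rule, the mean over all samples, served to choose among several entries of a symbol and was never needed. Right and left atrial tissue came from wild-type C57/Bl6J mice that were fed a high-fat diet (HFD; obese, 3 mice) or a control diet (lean, 3 mice) for 10 weeks from 6 weeks of age. Groups were read from the titles, which the column names match. For all 6 samples the labels' treatment entry names the opposite diet, so every direction given here rests on the titles. No body weight of these mice is in the labels.

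Cells make serine from the glycolytic intermediate 3-phosphoglycerate, and serine hands a carbon unit to tetrahydrofolate, which leaves glycine. In mitochondria the folate-bound carbon is oxidized in steps and released as formate, which the cytosol uses for purines, thymidylate and methyl groups. Several of these enzymes, among them MTHFD2, PHGDH and PSAT1, are known target genes of ATF4, the transcription factor of the integrated stress response, and their induction is a known feature of mitochondrial stress in heart and skeletal muscle.

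In obese atria Mthfd2 was 3.40-fold as high as in lean atria (95% interval 2.55 to 4.53) and passed the test across all genes. Phgdh was 2.72-fold as high (1.72 to 4.33), and missed the threshold, and Psat1 and Aldh1l2 had log2 fold changes of 0.48 and 0.43 without passing. For the other 6 enzymes the values of the obese and lean mice overlapped. Of 68 genes tested in surrounding lists, 3 rose past the threshold, Chac1, Asns and Atf5 of the ATF4 list, beside 0.484% of all genes. The lists were chosen with earlier results of these data known, so these counts are no test of them.

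Values are normalized counts, the reads on a gene divided by a size factor for each library. The comparison used limma, on log2(normalized count + 1), for the 15275 genes with a mean of at least 10, and adjusted p-values are Benjamini-Hochberg values over all of these genes, with a threshold of 0.05. On this scale the change of a gene with few reads comes out too small. All 10 enzymes were tested. The libraries held from 15874251 to 28971508 reads on genes, and lean mouse 2 was the deepest, with mitochondrial genes taking 30.7% of it, where the other 5 had 19.5% to 24.4%. With 3 mice a group, the smallest two-sided p of an exact permutation test is 0.1. In whole tissue, fewer cells of a type and less RNA per cell cannot be told apart.

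MTHFD2 is a dehydrogenase and cyclohydrolase of the mitochondrial folate pathway, high in embryos and dividing cells and low in most adult tissues. Its gene lies on the minus strand of chromosome 6 of GRCm38, from 83305691 to 83317606. Mthfd2 had 390, 369 and 413 normalized counts in obese mice 1 to 3 and 98.5, 149 and 102 in lean mice 1 to 3. The lowest obese mouse was thus more than double the highest lean mouse, which was lean mouse 2. Mean levels were 391 ± 22.2 in obese and 116 ± 28.0 in lean atria (± SD of 3 mice). On the log2 scale the difference was 1.76 (SE 0.19, limma adjusted p = 0.00403), and by p-value Mthfd2 ranked 8 of 15275 genes. It was the only enzyme of the 10 to pass, beside 0.746% of all genes tested (0.484% higher and 0.262% lower in obese atria). The same enzyme alone passed in edgeR's quasi-likelihood test on the recovered reads, which called 0.57% of all genes with TMM and 0.596% with RLE scaling. Leaving out any single mouse kept the log2 difference between 1.66 and 1.95 and the adjusted p of limma between 0.00302 and 0.0333. Without a variance trend limma gave no gene with an adjusted p under 0.05 (1717 at an unadjusted p under 0.05), and the adjusted p of Mthfd2 was 0.0862.

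MTHFD2L, the paralog of MTHFD2 in the same step, is the form known from adult tissues. Mthfd2l had 92.4, 102 and 98.8 normalized counts in obese and 116, 54.8 and 88.5 in lean mice. The lean mice lay on both sides of the obese mice, and the log2 fold change was 0.24 (95% interval -0.38 to 0.85, limma adjusted p = 0.791). Scaled to kilobases of exon, Mthfd2 exceeded Mthfd2l by 8.04, 6.90 and 7.97 times in the obese mice and by 1.61, 5.17 and 2.19 times in the lean mice. This ratio was higher in every obese mouse, and among the lean mice it was highest in lean mouse 2, which had both the highest Mthfd2 and the lowest Mthfd2l of its group.

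**Figure D1:**
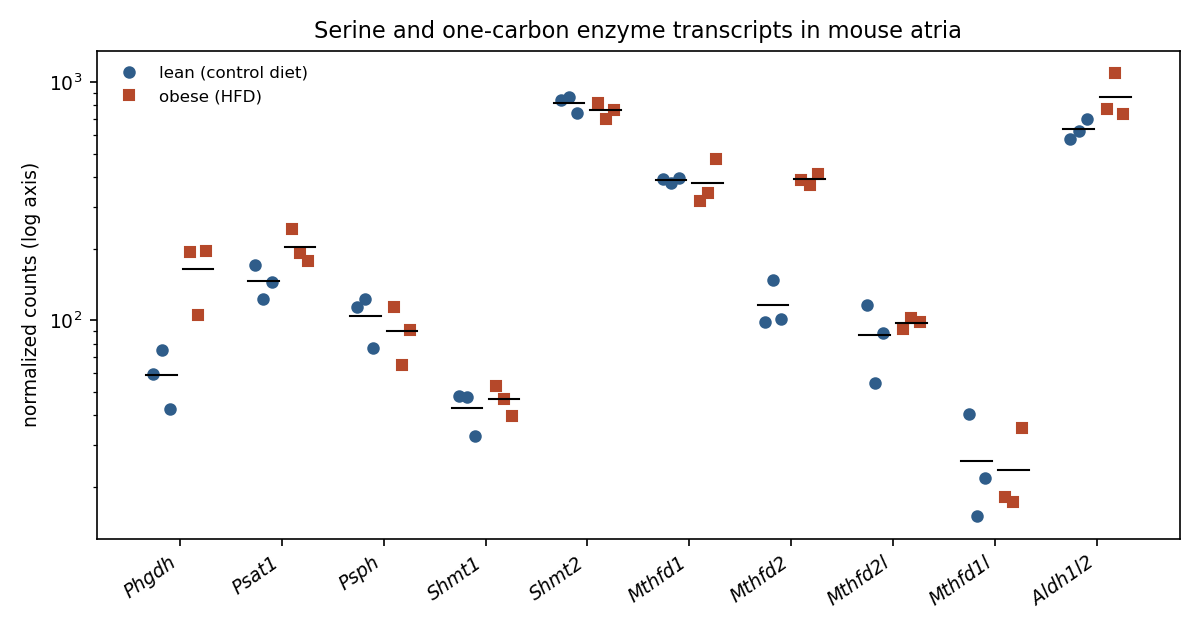
Normalized counts of the 10 enzymes (log axis) in each of 3 lean mice (circles) and 3 obese mice (squares), with black bars at the group means. The obese mice sit above all lean mice for Phgdh, Psat1, Mthfd2 and Aldh1l2, with the widest gap for Mthfd2 (369 to 413 against 98.5 to 149).

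ALDH1L2 is the mitochondrial formyltetrahydrofolate dehydrogenase, which oxidizes the carbon unit to carbon dioxide and yields NADPH. Aldh1l2 had 773, 1093 and 735 normalized counts in obese and 578, 625 and 700 in lean mice. All obese mice were above all lean mice, but obese mouse 3 and lean mouse 3 were close, and the log2 fold change of 0.43 (95% interval 0.07 to 0.79) did not pass (limma adjusted p = 0.317). Exons of the opposite-strand gene D10Wsu102e cover 14.1% of the exon bases of Aldh1l2. That gene had 176 ± 41.2 and 182 ± 22.2 normalized counts in obese and lean atria (± SD of 3 mice), and whether the counting used strand is not given in the sources used here. MTHFD1L makes formate from formyltetrahydrofolate in mitochondria. Mthfd1l had 18.1, 17.3 and 35.2 normalized counts in obese and 40.3, 15.1 and 21.9 in lean mice. With between 17 and 36 reads a library, counting alone gives an error of up to 24.3%, and the 95% interval of the log2 fold change ran from -1.16 to 0.99.

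PHGDH catalyses the entry step of serine synthesis, the oxidation of 3-phosphoglycerate. Phgdh, on the minus strand of chromosome 3 from 98313170 to 98339990, had 193, 105 and 196.5 normalized counts in obese and 59.3, 75.3 and 42.6 in lean mice. All obese mice were above all lean mice, and obese mouse 2 lay nearer to the lean mice than to the other 2 obese mice. Mean levels were 165 ± 51.8 in obese and 59.1 ± 16.3 in lean atria (± SD of 3 mice), a log2 difference of 1.45 (SE 0.30, limma adjusted p = 0.0639). On the recovered reads DESeq2 gave a log2 fold change of 1.47 with an adjusted p of 0.000752, and edgeR's quasi-likelihood test with TMM gave 1.46 with an adjusted p of 0.0677. Phgdh was the second enzyme that passed in DESeq2, a test that called 3.16% of all genes.

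PSAT1 moves an amino group onto the product of PHGDH, and PSPH removes the phosphate to give serine. Psat1 had 242, 192 and 178 normalized counts in obese and 171, 122.5 and 144 in lean mice. The groups did not overlap, yet obese mouse 3 and lean mouse 1 differed by less than the spread within either group. The log2 fold change was 0.48 (SE 0.19, limma adjusted p = 0.353). Psph had 114, 65.3 and 90.9 normalized counts in obese and 114, 122.5 and 76.5 in lean mice, which overlapped, with a log2 fold change of -0.22 (95% interval -0.82 to 0.38, limma adjusted p = 0.803). Per kilobase of exon, Phgdh was 2.96, 2.80 and 3.77 times as high as Psph in obese mice against 0.905, 1.07 and 0.970 times in the lean mice. This ratio did not overlap between the groups. The ratio of Phgdh to Psat1, the middle enzyme of the path, did overlap, at 1.36, 0.938 and 1.89 in obese and 0.593, 1.05 and 0.506 in lean mice. Exons of Cct6a on the opposite strand cover 10.4% of the exon bases of Psph.

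Stretches before the RefSeq gene starts are shown for the enzymes with the largest differences, Mthfd2 and Phgdh, beside Asns and Chac1 of the ATF4 list, whose log2 differences were at least as large. Each stretch has 120 bases and ends next to the gene start, except that of Chac1, which lies farther upstream. They are from GRCm38.p6, read 5′ to 3′ on the strand of the gene. Capitals mark matches, on either strand, to the CCAAT box (CCAAT, or ATTGG on the other strand) and to the C/EBP-ATF response element bound by ATF4 (TGATGNAA, N being any base).
Mthfd2, chr6:83317605-83317724, minus strand: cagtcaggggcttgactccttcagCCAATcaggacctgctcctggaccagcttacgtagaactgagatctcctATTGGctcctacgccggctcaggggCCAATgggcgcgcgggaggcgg
Phgdh, chr3:98339970-98340089, minus strand: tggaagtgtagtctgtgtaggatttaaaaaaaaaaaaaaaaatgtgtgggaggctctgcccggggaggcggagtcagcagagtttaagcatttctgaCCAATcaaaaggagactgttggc
Asns, chr6:7693210-7693329, minus strand: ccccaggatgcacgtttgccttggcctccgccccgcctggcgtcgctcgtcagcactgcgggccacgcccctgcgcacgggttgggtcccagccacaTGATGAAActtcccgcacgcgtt
Chac1, chr2:119351022-119351141, plus strand: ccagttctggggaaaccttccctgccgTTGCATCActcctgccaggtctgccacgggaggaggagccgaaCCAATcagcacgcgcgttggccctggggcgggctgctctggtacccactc
Asns holds TGATGNAA starting 23 bases before the gene start and Chac1, on the other strand, 193 bases before it. In windows of 300 bases around the start, 3.97% of 32851 RefSeq promoters held these letters, and none of the 10 windows of 9 enzymes did. The cAMP response element TGACGTCA and the E-box CACGTG were in none of these 10 windows either, against 1.79% and 7.15% of all promoters. CCAAT, in 37.4% of all promoters, was in those of 6 enzymes, Mthfd1, Mthfd2, Phgdh, Psat1, Psph and Shmt1. Mthfd2 had it at 3 positions, as did Psat1 and, outside the 10 enzymes, Chac1. The motifs do not overlap one another in these stretches, and a match or its absence says only which letters are in the window.

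SHMT2 in mitochondria and SHMT1 in the cytosol transfer the carbon of serine to folate. Shmt2 had 820, 699 and 763 normalized counts in obese and 843, 866 and 742 in lean mice, which overlapped. Its log2 fold change was -0.10 with a 95% interval from -0.37 to 0.17 (limma adjusted p = 0.794), the narrowest interval of the 10 enzymes. Shmt1 had 53.2, 46.9 and 39.8 normalized counts in obese and 48.1, 47.9 and 32.8 in lean mice, with a log2 fold change of 0.13 (95% interval -0.53 to 0.79). Shmt2 exceeded Shmt1, per kilobase, by 18.6 to 24.0 times in obese and 21.9 to 28.3 times in lean mice, which overlapped. Mthfd1, whose product joins 3 activities of the cytosolic folate pathway in a single protein, had 317, 344 and 476 normalized counts in obese and 391, 378 and 396 in lean mice. The lean mice were closely grouped and lay within the range of the obese mice, and the log2 fold change was -0.06 (95% interval -0.42 to 0.31, limma adjusted p = 0.933).

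**Figure D2:**
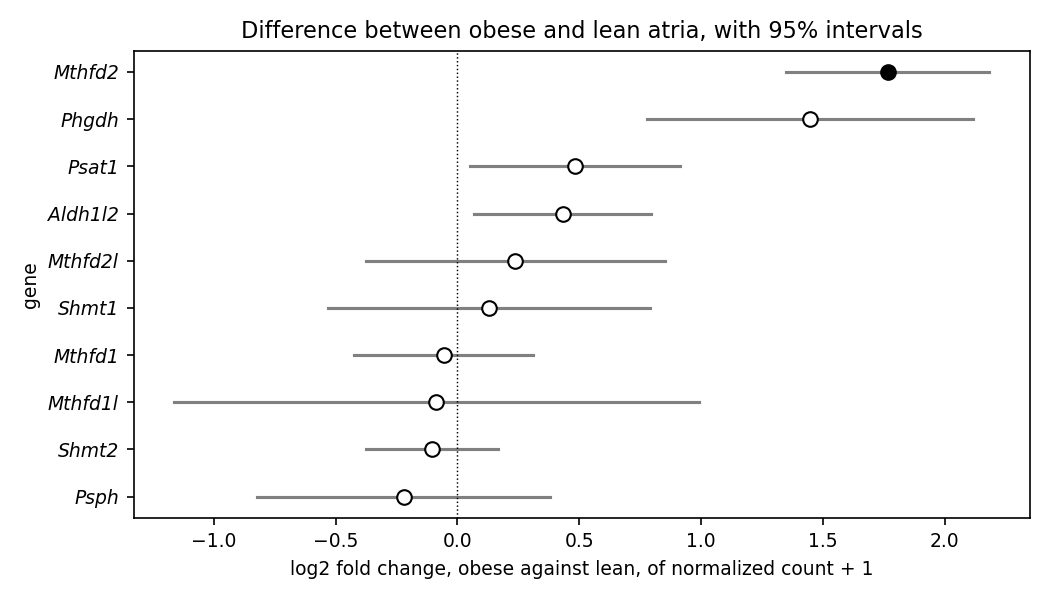
Log2 fold change (horizontal axis, obese against lean, of normalized count + 1) of each enzyme with its 95% interval from limma, with a filled circle for an adjusted p under 0.05. Mthfd2 is the filled circle at 1.76, and the intervals of Mthfd2, Phgdh, Psat1 and Aldh1l2 lie above 0 while the other 6 include it.

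Of the 10 enzymes, 6 had a log2 fold change above 0 and their median was 0.18, beside 50.8% of genes above 0 and a median of 0.00492 over all genes tested. In 4 of them the obese mice were all above the lean mice, which held for 8.86% of all genes, and in none were they all below, which held for 9.17%. The same 4, Mthfd2, Phgdh, Psat1 and Aldh1l2, had an unadjusted p under 0.05 in limma, as did 12.2% of all genes (6.66% higher and 5.55% lower in obese atria). The list was drawn up with earlier results of these data known, so these shares describe it and are no test of it.

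Scaled to kilobases of exon, the order of levels in lean atria was Shmt2 (263 ± 21.2 normalized counts per kb), Mthfd1 (87.4 ± 2.08), Aldh1l2 (84.5 ± 8.19), Psat1 (34.3 ± 5.75), Mthfd2 (33.3 ± 8.03), Psph (24.1 ± 5.66), Phgdh (23.8 ± 6.57), Mthfd2l (13.03 ± 4.65), Shmt1 (11.1 ± 2.27) and Mthfd1l (5.80 ± 2.95; SD, n = 3 for each). Every lean mouse had Shmt2 above the range of Mthfd1, and Aldh1l2 above the range of Psat1, whereas the ranges of all other neighbours in this order overlapped. The lengths join all annotated exons of a gene, used in atria or not, so orders and ratios between genes depend on the annotation. In obese atria Aldh1l2 (116 ± 26.2 per kb) and Mthfd2 (112 ± 6.35) stood side by side after Shmt2 (245 ± 19.5), and Phgdh (66.3 ± 20.8) came above Psat1 (48.0 ± 7.90), with overlapping ranges. Mthfd2 made up 15.1% to 15.9% of the summed per-kilobase level of the 10 enzymes in obese mice against 4.76% to 7.09% in the lean mice. The sum itself was 742, 687 and 744 normalized counts per kb in obese mice against 594, 601 and 546 in lean mice. Without Mthfd2 it was 631, 582 and 626 against 566, 558 and 516, still without overlap but with a much narrower gap. Of these 9 enzymes only 3, Phgdh, Psat1 and Aldh1l2, were themselves without overlap, so this sum does not show a rise of the rest. The share of Shmt2 was 32.7% to 35.5% in obese mice against 43.8% to 46.4% in the lean mice, while its own level overlapped.

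**Figure D3:**
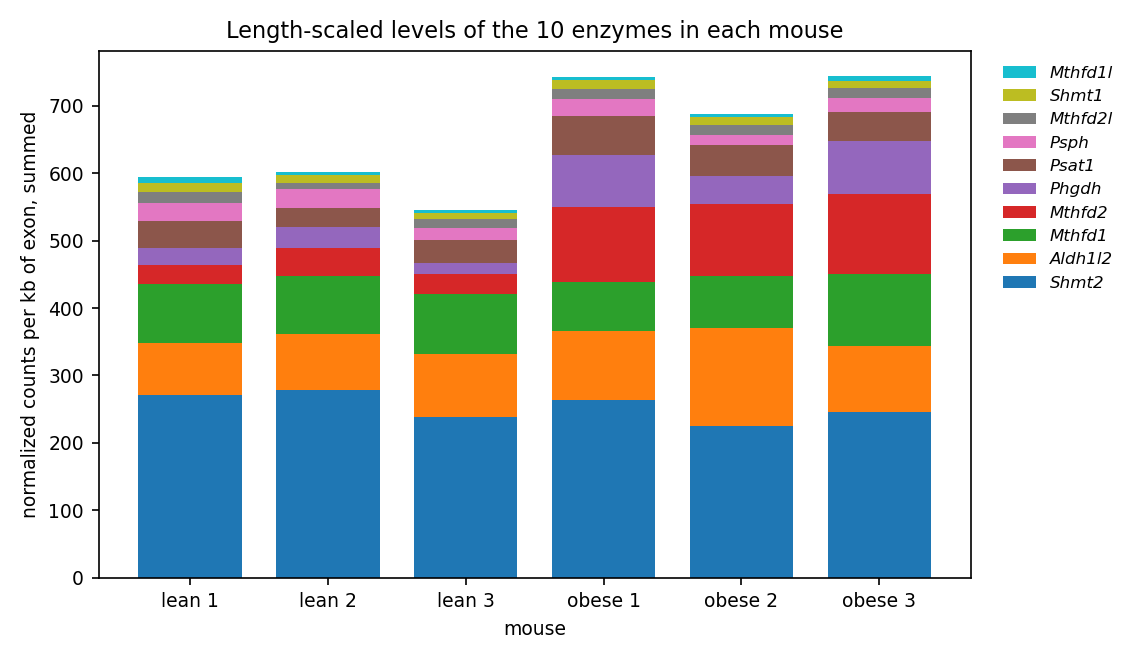
Summed normalized counts per kilobase of exon of the 10 enzymes in each mouse, with a colour for each gene (bars start at 0). The columns reach 546 to 601 in lean and 687 to 744 in obese mice, and the Mthfd2 segment grows from 28.3 to 42.6 in lean mice to 106 to 119 in obese mice.

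The genes around these enzymes were listed by function, 75 genes in 8 lists, and 68 of them were tested. Of these, 3 rose and none fell with an adjusted p under 0.05 in limma, all 3 in the list of ATF4 and its target genes, which had 17 genes and 16 tested. Over all genes tested, 0.484% were called higher and 0.262% lower. At these shares less than 1 call would fall among the 52 tested genes of the other 7 lists, so the absence of calls there is near the background, and the difference between the lists was not tested. Chac1, which encodes a glutathione-degrading enzyme, had 343, 241 and 196.5 normalized counts in obese and 44.8, 52.7 and 31.7 in lean mice. Every obese mouse was several times above every lean mouse, and the log2 fold change was 2.56 (SE 0.27, limma adjusted p = 0.00403). Asns, asparagine synthetase, had 238, 253 and 295 against 104, 58.2 and 67.8 normalized counts, a log2 fold change of 1.80 (SE 0.23, limma adjusted p = 0.00937). Atf5, a transcription factor related to ATF4, had 2905, 2652 and 2466 against 1602, 1407 and 1037, a log2 fold change of 1.01 (SE 0.16, limma adjusted p = 0.0234). Chac1 kept an adjusted p under 0.05 in limma whichever mouse was left out, whereas Asns lost it without lean mouse 2 (limma adjusted p = 0.0501), lean mouse 3 (0.0613) or obese mouse 2 (0.0517). Atf5 lost it without the same mice (limma adjusted p = 0.0885, 0.0613 and 0.0850) and without obese mouse 1 (0.0703).

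The other 13 genes tested of the ATF4 list did not pass. Of all 16, 7 had every obese mouse above the lean mice, beside 8.86% of all genes, and 1 had them all below, beside 9.17%. The latter was Stc2, a secreted glycoprotein, with 183, 199 and 133 normalized counts in obese and 219, 216 and 207 in lean mice (log2 fold change -0.34, limma adjusted p = 0.515). Trib3, a pseudokinase that feeds back on ATF4 (log2 fold change 0.94, limma adjusted p = 0.0797), Gdf15, a stress-induced circulating factor (1.86, 0.120), and Cebpg, a partner of ATF4 (0.55, 0.144), had all obese mice above all lean mice, and these 3 passed in DESeq2. Atf4 itself had 2258, 1584 and 2428 normalized counts in obese and 1564, 1522 and 1514 in lean mice. Obese mouse 2 was close to the lean mice, and the log2 fold change of 0.42 did not pass (limma adjusted p = 0.298). Ddit3, which encodes the stress factor CHOP, had a log2 fold change of -0.04, and Atf3 had one of -1.05 with overlapping groups. The median of the 16 genes was 0.40.

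None of the 11 tested genes among the other folate enzymes passed. The smallest p belonged to Aldh1l1, the cytosolic counterpart of Aldh1l2, with 100.5, 60.2 and 49.98 normalized counts in obese and 131, 118 and 98.4 in lean mice, a log2 fold change of -0.77 (limma adjusted p = 0.295). The groups overlapped, since obese mouse 1 was above lean mouse 3. Ftcd had a mean under 10, and Dmgdh was at 0 in all 6 libraries, each of which could show a gene from 2.05 to 3.41 normalized counts upward if 3 reads are required. Of the 5 folate transport genes, Folr2, the receptor found on macrophages, had the smallest p (log2 fold change 0.27, limma adjusted p = 0.592), and Slc25a32, the mitochondrial folate carrier, had a log2 fold change of 0.02. In the glycine cleavage system, which turns glycine into a further folate-bound carbon, Gldc had 44.2, 46.9 and 54.5 against 20.2, 28.7 and 24.0 normalized counts, without overlap, and a log2 fold change of 0.98 (limma adjusted p = 0.227). Its partners Amt, Gcsh and Dld had log2 fold changes of 0.10, 0.06 and -0.04.

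In the methionine cycle and transsulfuration, 8 of 11 genes were tested and none passed, the smallest p being that of Ahcy, which hydrolyses S-adenosylhomocysteine (log2 fold change 0.25, limma adjusted p = 0.644). Purine synthesis, a main consumer of formate, had log2 fold changes from -0.18 to 0.22 in its 8 genes, with a median of -0.12 and the smallest p for Prps1 (limma adjusted p = 0.644). Of the 9 serine and glycine transporters, 8 were above 0, beside 50.8% of all genes, with a median of 0.25. In 3 of the 9 all obese mice were above all lean mice, beside 8.86% of all genes. Their sum was 6730 to 9797 normalized counts in obese and 5096 to 6251 in lean mice. Slc38a2 had the groups apart only narrowly, at 3471 in the lowest obese and 3467 in the highest lean mouse (log2 fold change 0.68, limma adjusted p = 0.289). Sfxn3, a relative of the mitochondrial serine carrier Sfxn1, had the smallest p there (log2 fold change 0.39, limma adjusted p = 0.280), and Sfxn1 had a log2 fold change of 0.11. Of the genes that use serine, Sptlc2, a subunit of the enzyme that starts sphingolipid synthesis, had the smallest p (log2 fold change 0.28, limma adjusted p = 0.397).

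**Figure D4:**
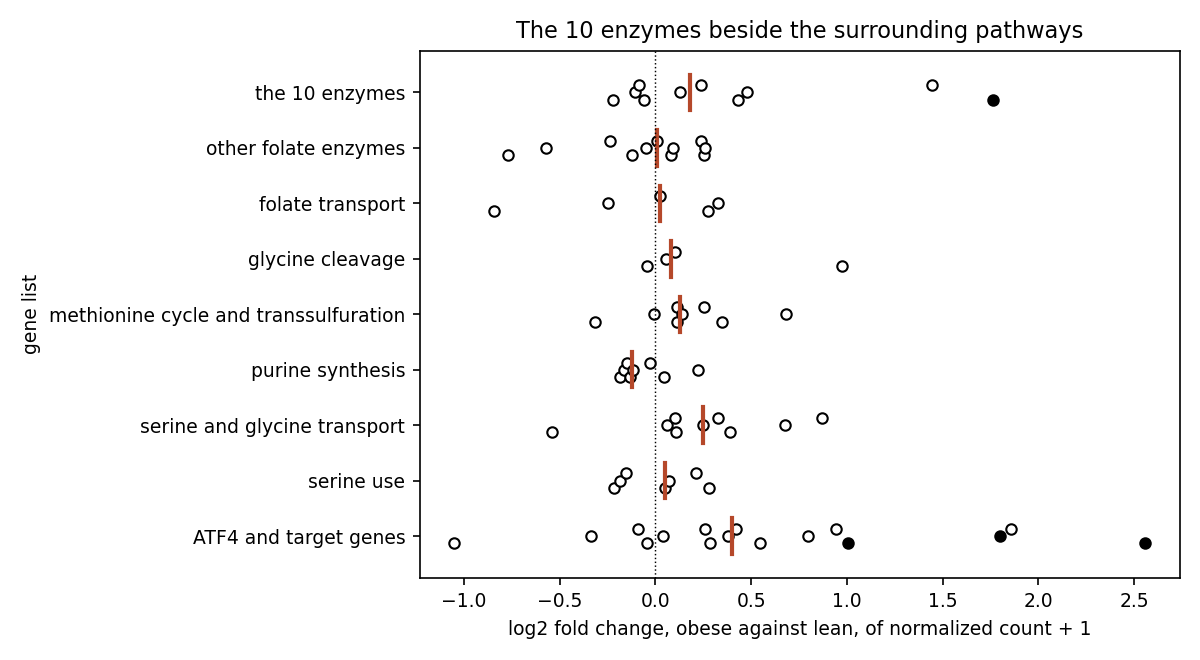
Log2 fold changes (horizontal axis, obese against lean, of normalized count + 1) of the genes tested in the set of 10 enzymes and in 8 surrounding lists, with filled circles for an adjusted p under 0.05 and vertical bars at the list medians. The 4 filled circles are Mthfd2 at 1.76 and Chac1, Asns and Atf5 at 2.56, 1.80 and 1.01, and the purine synthesis genes lie between -0.18 and 0.22.

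Likeness to Mthfd2 was measured as the root mean square difference between log2 values centred on their mean over the 6 libraries. The nearest of all genes tested were Ms4a4a (0.256), Rtp3 (0.280), Ms4a6c (0.290), Ccl9 (0.292) and Slc25a22 (0.298), against a median of 0.931 over all genes. None is among the 10 enzymes or in the surrounding lists. Slc25a22, a mitochondrial glutamate carrier, had 1692, 1635 and 1633 normalized counts in obese and 709, 669 and 603 in lean mice, and like Mthfd2 it was tightly grouped in the obese mice. Ms4a4a and Ms4a6c, which lie on chromosome 19 and encode membrane proteins of myeloid cells, had log2 fold changes of 1.47 and 1.33, and the chemokine gene Ccl9 had one of 1.57. Differences of this size follow from how the genes were picked, since a profile near that of Mthfd2 carries a similar difference between the groups.

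Markers of the cells that the tissue can hold were read beside these values. All 6 atrial myocyte markers were detected in every library, and none passed, although 3 of them had an unadjusted p under 0.05 in limma, all lower in obese atria. Their sum was 637230 to 1071700 in obese and 978490 to 1025300 in lean mice, with Myl7 at 31186, 27168 and 58765 normalized counts in obese mice against 56346 to 60190 in the lean mice. All 6 had a log2 fold change below 0, with a median of -0.42, whereas 50.8% of all genes were above 0. In 2 of them, Sln and Tnnt2, all obese mice were below all lean mice (log2 fold changes -0.32 and -0.44), beside 9.17% of all genes. The sum of 4 ventricular markers was 6882 to 9866 in obese and 7919 to 17399 in lean mice, none past the threshold, and Myl2 among them reached 8176 in lean mouse 2 against 2290 to 3470 in the other 5. The summed level of 5 proliferation markers was 152 to 275 in obese and 155 to 244 in lean mice, with none of the 4 tested past the threshold. That of 4 macrophage markers was 6852 to 8477 and 5467 to 7150, and that of 6 white adipocyte markers 6322 to 11830 and 3431 to 6445, both overlapping and without a gene past the threshold. Among the macrophage markers only Cd68 had all obese mice above all lean mice (log2 fold change 0.37, limma adjusted p = 0.465). Lyz2 had the smallest p (0.35, limma adjusted p = 0.3785), and Adgre1 and Csf1r overlapped, with log2 fold changes of 0.23 and -0.01. Fabp4 made up most of the white adipocyte sum. It was the only 1 of the 6 with all obese mice above all lean mice (log2 fold change 0.81, limma adjusted p = 0.108), and Lep was lower (-1.41, 0.526). The summed level of 5 fibroblast markers was 31294 to 32698 in obese and 31128 to 36489 in lean mice, again overlapping with no gene past the threshold. The sum of 4 endothelial markers did not overlap, at 11973 to 13633 in obese and 9821 to 10700 in lean mice, with none of the 4 genes past the threshold. Only Pecam1 of the 4 was itself without overlap (log2 fold change 0.57, limma adjusted p = 0.0504). Cdh5, Kdr and Tek overlapped, with log2 fold changes of 0.04, 0.14 and 0.18. The sum of 4 brown adipocyte markers was 616 to 1283 in obese and 187 to 330 in lean mice. Of the 3 tested, 2 passed, Ucp1 and Cidea, both higher in obese atria, beside 0.484% of all genes called higher. Ucp1 had 706, 173 and 745 normalized counts in obese and 86.2, 5.48 and 15.3 in lean mice (log2 fold change 4.43, limma adjusted p = 0.0446). Cidea had a log2 fold change of 1.21 (limma adjusted p = 0.0310) and Dio2 one of 1.32 (0.0591). All 3 had every obese mouse above every lean mouse, beside 8.86% of all genes. Elovl3 of this list was at 0 in lean mice 2 and 3. The part of these cells in the differences of Mthfd2, Phgdh and the ATF4 list was not tested.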

How the data were processed

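The authors made directional libraries and used FastQC for read quality, STAR for alignment to GRCm38 (unique alignments only), Salmon for the assignment of reads to Ensembl genes, and DESeq2 for scaling and testing. As deposited by the authors, the signal is thus a gene's reads over the size factor of its library, that is, a normalized count. The authors' own log2 fold changes with standard errors, p-values and scores stand in the same table and were not used. Dividing each library by its smallest value gave whole reads (tolerance 0.001) for 100.0% of values, and 1 row naming no gene, at 0, was left out. Gene symbols came from a reference table of gene names for 97.8% of identifiers (otherwise from the deposited table), and exon lengths from the union of GENCODE exons. limma 3.58.1 in R 4.3.3 was run with a variance trend, a pseudocount of 1 and a minimum mean of 10, on all 6 samples without covariates. The alternatives were edgeR 4.0.16 and DESeq2 1.42.0 on the recovered reads, and other filters, pseudocounts and scalings. The labels do not say how the 3 mice of a group were housed or collected, so p-values measure the spread between these samples.

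The 10 enzymes and all lists were chosen with earlier results of these data known, and the motifs and promoter stretches after the values were seen. Named were the 10 enzymes, genes of the surrounding lists past the threshold or, failing these, with the smallest p of the list, and the 5 genes nearest to Mthfd2. Other genes of these lists and the single cell type markers were chosen after their values were seen. Intervals on single counts and the limit of 3 reads cover counting error only.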

Additional observations from a re-analysis of the deposited data

How the results depend on the processing

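Mthfd2 had an adjusted p under 0.05 in 15 of 16 alternatives and Phgdh in 1 of 16, and the log2 fold changes of Phgdh, Psat1, Psph, Shmt2, Mthfd2 and Aldh1l2 kept their sign in all 16. The main test called 114 genes, 1 of the 10 enzymes and 3 of the surrounding genes. With DESeq2, 483 genes, 2 of the 10 enzymes and 6 of the surrounding genes passed, and without a variance trend 0, 0 and 0 did. With each mouse left out in turn these counts ran from 14 (without lean mouse 2) to 342 (without obese mouse 3), stayed at 1, and ran from 1 to 4. The sign turned, each time with a mouse left out, for Shmt1 (-0.051 to 0.235; below 0 without lean mouse 3), Mthfd1 (-0.232 to 0.060; above 0 without obese mouse 1 or 2, 0.0026 in the latter), Mthfd2l (-0.056 to 0.482; below 0 without lean mouse 2) and Mthfd1l (-0.404 to 0.283; above 0 without lean mouse 1, obese mouse 1 or obese mouse 2). The cause was not tested. With the replicate number as a block, 157 genes, 1 enzyme and 4 surrounding genes (Slc38a2 in addition) passed. Deviations of same-numbered mice from their group means correlated across genes at 0.12, -0.03 and -0.004, and not every mouse correlated best with its own number. With 3 mice a group these values cannot settle whether the numbers pair mice, and the labels do not say how the mice were housed or collected. Counts limit Mthfd1l and Shmt1 most, with as few as 17 and 30 reads in a library.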
